A study of Mus musculus with 113 samples.

Results

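The genes described here are the 4 nuclear receptors that were knocked down by siRNA in mouse preimplantation embryos, Nr5a2, Rarg, Nr1h3 and Nr2c2, and the 5 genes closest to them in sequence, Nr5a1, Rara, Rarb, Nr1h2 and Nr2c1. They were taken by name, with earlier results of these data known. The study had picked the 4 receptors in part for their high expression in early embryos. All 9 genes were found among the 24006 genes of the 92 deposited expression files. The comparisons ask how specific each siRNA set was, whether loss of a receptor was accompanied by a change in its paralog, and whether the receptors moved with each other.

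Embryos came from C57BL/6N females mated with PWK/PhJ males. Knockdown (KD) embryos received 3 siRNAs against each gene named, and negative control (NC) embryos received a control siRNA. The 4KD experiment (all 4 receptors, 5 μM siRNA per gene, NC 20 μM) was collected at the 4-cell (4C) and 8-cell (8C) stages, the 3KD experiment (4 groups, each lacking the siRNAs of 1 receptor, 5 μM per gene, NC 15 μM) and the single KD experiment (5 μM, NC 5 μM) at 8C, and a separate Nr5a2 KD at the 2-cell (2C) stage (20 μM, NC 20 μM). These doses are those of the sample labels. The study's methods state 1 dose per siRNA for every KD group, which with 3 siRNAs per gene comes to about 5 μM per gene. The labels differ from the methods for the 2C KD and for part of the NC groups, as the methods give 20 μM for NC. These 16 groups had 2 libraries each, and each library was a pool of embryos. Single embryos injected with base editor (BE) mRNA alone, with an Nr5a2 sgRNA alone, or with both (100 ng/μl each) gave 8, 8 and 14 libraries at 2C and again at 8C. The sgRNA was designed to write a stop codon into an Nr5a2 coding exon. A pool of embryos or a whole embryo cannot tell fewer cells carrying a transcript from less transcript per cell.

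Nr5a2 encodes an orphan nuclear receptor of the NR5A family that binds DNA as a monomer and is expressed in liver, pancreas, ovary and the early embryo. Nr5a1 (SF-1) is its only close relative and acts mainly in the gonad and adrenal gland. Rarg, Rara and Rarb encode the 3 retinoic acid receptors, and Nr1h3 and Nr1h2 the oxysterol receptors LXRα and LXRβ, all of which bind DNA with an RXR partner. Nr2c2 (TR4) and Nr2c1 (TR2) are orphan receptors that bind direct repeats as homodimers or as heterodimers with each other. Because the DNA-binding domains of such relatives are alike, a paralog is a possible stand-in for a lost receptor and a possible unintended target of its siRNAs.

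The libraries had FPKM sums of 83392 to 556462 and 5472 to 11921 genes at 1 FPKM or more. Sequencing depth, estimated only relative to the median library from the spacing of low values, ran from 0.365 to 1.53. The summed late 2C markers (Zscan4c, Zscan4d, Tcstv1, Tcstv3) were 219 to 873 FPKM in the 2C pools and 0.559 to 73.1 FPKM in the 8C pools, except for Nr2c2 KD replicate 1 at 282. The 6 summed cumulus and granulosa markers ranged from 3.30 to 54.0 FPKM in the pools, nearly all of it Amhr2, while Ptx3 and Fshr were listed at 0 in every pool. The column names of 3 single-embryo libraries, 1 labelled 2C and 2 labelled 8C, give the 4-cell stage.

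The study's methods list the siRNA sequences, but these were not used here. Whether any siRNA lies in the stretches printed below was therefore not examined. Where the mRNAs allow a full match can be read from the reference: a 19-base guide region can match 2 members in full only where their mRNAs share a stretch of at least that length. Shorter or mismatched matches were not examined, so a lack of shared stretches does not show that a paralog was spared. In GENCODE vM1 on NCBIM37 (mm9), Nr5a2 and Nr5a1 shared 2 such 19-base stretches among the 3817 in Nr5a2 transcripts, Rarg shared 19 of its 3392 with Rara and 7 with Rarb, and Nr1h3 shared none of 2194 with Nr1h2 and Nr2c2 none of 8094 with Nr2c1. No target shared a 19-base stretch with a member outside its own family. For 4 pairs the longest stretch is printed in capitals with the exonic bases around it, and these 4 lay in coding exons.

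The longest stretch common to Nr5a2 (chr1:138837527-138837570, minus strand, exon 6) and Nr5a1 (chr2:38563960-38564003, minus strand, exon 4) was 20 bases, between proteins identical at 59.3% of 460 aligned residues.
Nr5a2: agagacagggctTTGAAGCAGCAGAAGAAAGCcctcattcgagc
Nr5a1: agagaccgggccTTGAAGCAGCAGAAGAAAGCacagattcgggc

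Rarg (chr15:102069378-102069851, minus strand) and Rara (chr11:98833070-98833842, plus strand) shared 24 bases across the junction of exons 8 and 9 in both genes, so that the coordinates include an intron which the printed bases skip. The proteins were identical at 72.5% of 451 residues.
Rarg: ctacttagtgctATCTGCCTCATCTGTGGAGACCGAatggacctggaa
Rara: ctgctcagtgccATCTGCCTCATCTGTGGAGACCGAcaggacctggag

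Rarg (chr15:102070560-102070606, minus strand, exon 6) and Rarb (chr14:17276193-17276239, minus strand, exon 5) shared 23 bases, and the proteins were identical at 73.7% of 457 residues.
Rarg: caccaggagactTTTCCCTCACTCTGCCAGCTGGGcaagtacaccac
Rarb: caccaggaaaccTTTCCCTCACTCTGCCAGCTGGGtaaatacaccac

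Nr1h3 (chr2:91030631-91030671, minus strand, exon 6) and Nr1h2 (chr7:51806700-51806740, minus strand, exon 7) shared at most 17 bases, and the proteins were identical at 68.1% of 426 residues.
Nr1h3: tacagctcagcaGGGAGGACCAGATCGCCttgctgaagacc
Nr1h2: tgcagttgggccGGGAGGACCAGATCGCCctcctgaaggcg

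Nr2c2 and Nr2c1 shared at most 15 bases, and the proteins were identical at 65.0% of 568 residues.

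The retinoic acid receptors, the most identical as proteins, thus also shared the most mRNA stretches, while Nr1h3 and Nr1h2 had none at this length in spite of a similar protein identity.

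Levels are given as FPKM, which is per kilobase, so that genes can be compared. In the control groups at 8C, Nr5a2 and Nr1h2 were the most abundant members. In 8C BE and sgRNA embryos Nr1h2 stood at 43.1 ± 8.82 (SD, n = 8) and 40.4 ± 12.8 (SD, n = 8), and Nr5a2 at 50.0 ± 16.1 (SD, n = 8) and 42.4 ± 20.5 (SD, n = 8), so that this neighbouring pair did not differ beyond the spread. Rarg followed at 25.9 ± 10.3 (SD, n = 8) and 20.4 ± 11.4 (SD, n = 8), then Nr1h3 at 15.5 ± 7.68 (SD, n = 8) and 12.9 ± 6.2 (SD, n = 8) and Nr2c2 at 13.4 ± 7.32 (SD, n = 8) and 10.9 ± 4.57 (SD, n = 8), the latter 2 again within 1 SD of each other. Rarb was low at 3.76 ± 2.43 (SD, n = 8) and 3.22 ± 2.58 (SD, n = 8). Nr2c1 (0.856 ± 0.932 (SD, n = 8) in BE embryos) and Rara (0.392 ± 0.301 (SD, n = 8)) were below 1 on average, and Nr5a1 was listed at 0 in all 16 of these embryos.

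In each family the siRNA therefore addressed a different share of the transcripts. In the NC pools of the single KD experiment, Nr5a2 made up all of the summed FPKM of its pair, Nr2c2 92.1% and Rarg 90.2%, but Nr1h3 only 17.4% of the sum with Nr1h2. In these pools only Nr1h2 had a higher mean than its target. This order did not hold in every NC library: in the 4C NC pools Nr1h3 made up 26.1% of the sum with Nr1h2 in replicate 1 and 60.5% in replicate 2. The shares of the other targets varied too. In the 3KD NC pools Rarg made up 90.5% of its family in replicate 1 and 38.5% in replicate 2. Nr2c2 made up 93.2% and 66.5% of its pair there.

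**Figure D1:**
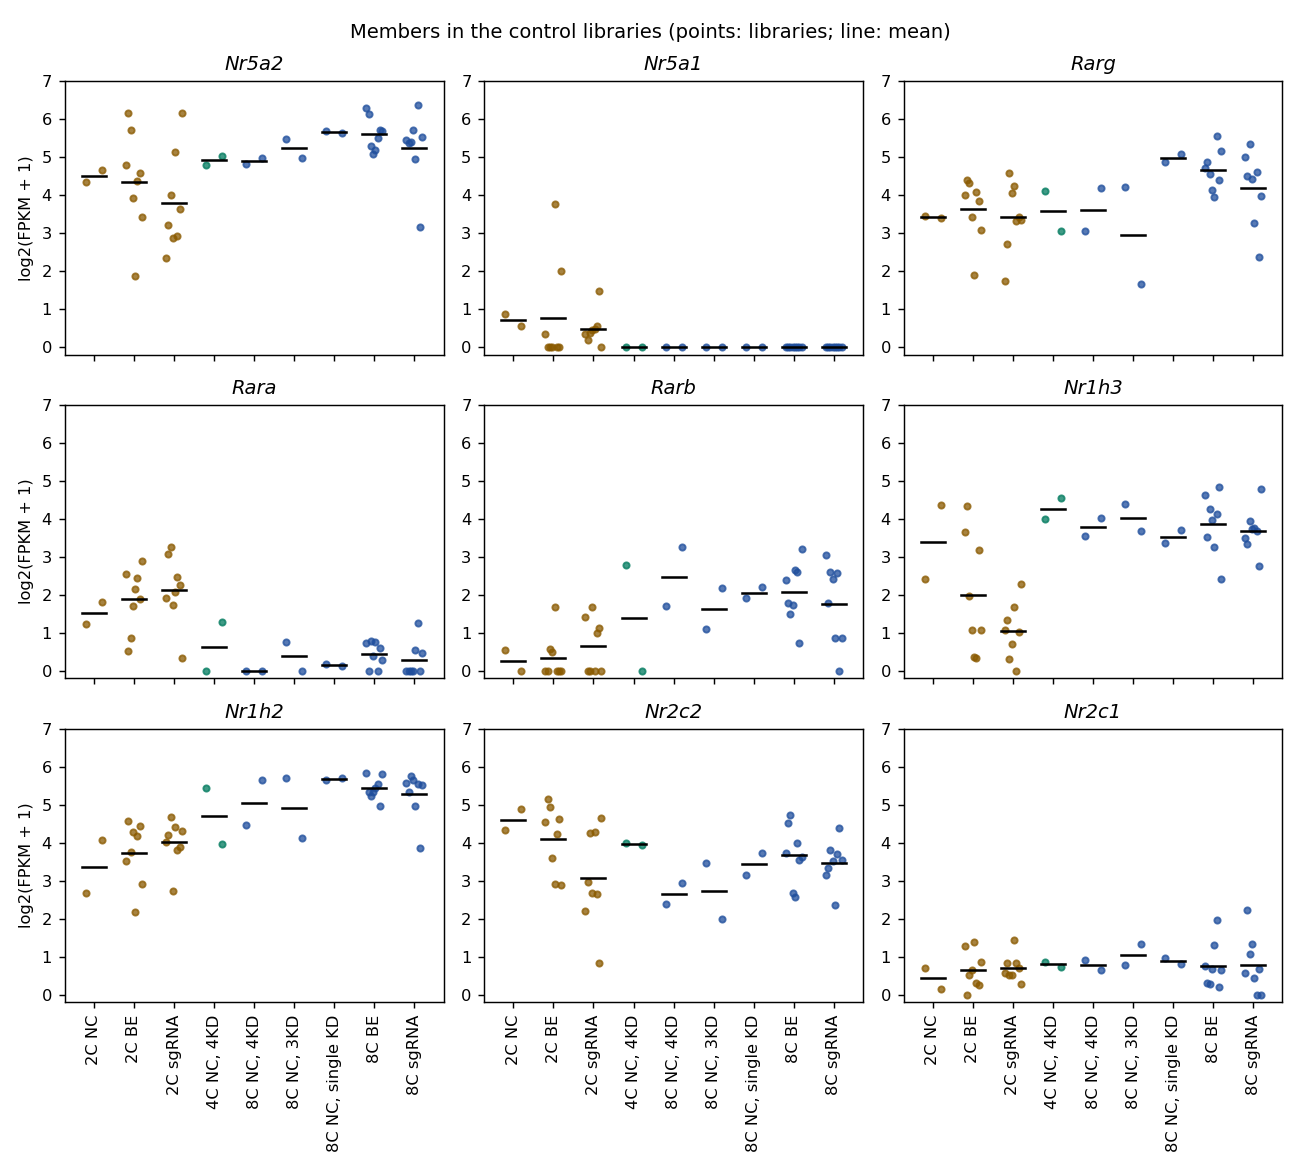
Level of each gene on the y axis as log2(FPKM + 1) in the 9 control groups (x axis); points are libraries, the line is their mean, and colours mark 2C, 4C and 8C. Nr5a1 lies at 0 in every control library from 4C on, Rara is highest at 2C, and Nr1h2 is the most abundant paralog.

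Between 2C and 8C the control single embryos (16 against 16) gave the test with the most samples, on log2(FPKM + 1) with limma. Of 8 members that passed the filter on low values, 7 were called at an adjusted p below 0.05, where 72.6% of all genes tested were called, so the count is close to that background. The median of all genes was -0.31 on the log2 scale, and the member differences are given with the value relative to it.

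Nr1h3, LXRα, had lowest, median and highest values of 0.273, 2.01 and 19.1 FPKM in 2C BE embryos and 0, 1.08 and 3.86 in 2C sgRNA embryos, against 4.36, 15.6 and 27.4 and 5.81, 12.1 and 26.8 at 8C. The ranges of the stages overlapped, and the difference was 2.26 (SE 0.33, adjusted p = 2.95e-07), or 2.57 above the median gene. Nr1h2 was higher at 8C by 1.49 (SE 0.24, adjusted p = 1.25e-06) and Rarb by 1.42 (SE 0.28, adjusted p = 3.03e-05), or 1.80 and 1.73 above the median gene. Nr5a2 was higher by 1.36 (SE 0.36, adjusted p = 0.00108) and Rarg by 0.90 (SE 0.29, adjusted p = 0.00645), or 1.67 and 1.21 above it. In the control single embryos these 5 genes thus rose. Without the embryo of the 2C group whose column name gives another stage, Nr5a2 was higher by 1.53 (SE 0.33). The NC pools of 2C and 8C come from different experiments and were not compared by a test. In them Nr1h3 was 4.32 and 19.7 FPKM at 2C and 9.32 to 19.8 at 8C, so that the stages overlapped. Rarg overlapped too, at 9.57 and 9.89 against 2.18 to 33. Nr5a2, Nr1h2 and Rarb were higher in every 8C NC pool than in both 2C NC pools. The share of all genes for which this held was not computed, so it is not known how common it was.

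Rara went the other way. Its lowest, median and highest values were 0.426, 3.11 and 6.46 in 2C BE embryos and 0.262, 3.49 and 8.61 in 2C sgRNA embryos, and 0, 0.421 and 0.724 and 0, 0 and 1.4 at 8C, a difference of -1.65 (SE 0.24, adjusted p = 2.23e-07), or -1.34 relative to the median gene. Nr5a1, SF-1, fell by 0.62 (SE 0.25, adjusted p = 0.0234) from a low start, 10 of the 16 embryos at 2C having any FPKM above 0. Relative to the median gene this was -0.31, and the call was lost with quantile normalization (adjusted p = 0.119). The Nr5a1 mean of 2C BE embryos rested largely on replicate 5, at 12.5 FPKM (next 2.99). Nr5a1 and Rara passed the filter only through 2C groups, and Rarb only through 8C groups. The filter thus favoured the directions found for these genes. Within the retinoic acid receptors the 2C to 8C difference in the single embryos was therefore negative for Rara and positive for Rarb and Rarg. Nr2c2 gave -0.01 (95% interval -0.65 to 0.63) and was not called; Nr2c1 did not pass the filter.

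In the NC pools Nr2c2 was 15 and 14.5 FPKM at 4C and 4.21 and 6.71 at 8C, lower in both 8C libraries, with a log2 difference of -1.31 (SE 0.51, adjusted p = 0.653). None of the 6 members tested was called between these NC groups (1 at an unadjusted p below 0.05), nor was any gene (0%).

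The single KD experiment at 8C gives each siRNA set by itself, against shared NC libraries. Every target was lower in both KD libraries than in both NC libraries. Depending on the siRNA set, this also held for 18.9% to 33.9% of all genes. With 2 libraries per group an exact permutation test cannot go below p = 0.333, so the call rests on limma across all genes.

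Nr5a2 was 50.2 and 48.8 FPKM in NC and 9.65 and 12.8 in Nr5a2 KD, 22.6% of the NC mean being left. The groups did not overlap and the log2 fold change was -2.06 (SE 0.35, adjusted p = 0.0115), in a comparison where 2.75% of genes were called. The summed oocyte markers (Zp1, Zp2, Zp3, Gdf9 and Bmp15) were 85.5 to 134 FPKM in Nr5a2 KD and 31.0 to 37.6 in NC, and their part in the result was not tested. Rarg was 28 and 33 in NC and 3.64 and 5.47 in Rarg KD, with 14.9% left and a log2 fold change of -2.52 (SE 0.39, adjusted p = 0.116). This large difference did not pass the adjusted threshold, in a comparison with 0.00984% of genes called, and it did with median-ratio scaling (adjusted p = 0.0169) or quantile normalization (adjusted p = 0.0167).

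Nr1h3 was 9.32 and 12 in NC and 0.547 and 0.24 in Nr1h3 KD, so that 3.69% was left, and the log2 fold change was -3.06 (SE 0.49, adjusted p = 0.157), again with 0.00984% of genes called. Nr2c2 was 7.81 and 12.2 in NC and 0.809 and 0.592 in Nr2c2 KD, with 7.01% left and a log2 fold change of -2.67 (SE 0.38, adjusted p = 0.0359), where 0.0787% of genes were called. The Nr2c2 call was lost with either rescaling of the libraries (adjusted p = 0.132 and 0.13) and when any of the 4 libraries was left out (adjusted p from 0.219 to 0.535). The Nr5a2 call was lost when either NC library was left out (adjusted p = 0.112 without NC replicate 1 and 0.133 without NC replicate 2).

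Against the mean of the other 3 single KD groups, Nr5a2 in Nr5a2 KD differed by -1.70 (SE 0.29, adjusted p = 0.00829), Nr2c2 in Nr2c2 KD by -2.55 (SE 0.31, adjusted p = 0.0193), Rarg in Rarg KD by -1.89 (SE 0.31, adjusted p = 0.209) and Nr1h3 in Nr1h3 KD by -2.76 (SE 0.40, adjusted p = 0.154). The shares of genes called were 3.95%, 0.0492%, 0% and 0% in that order, and 3, 1, 0 and 0 members. The other 2 calls of the first contrast were Rarg (log2 difference 1.43, adjusted p = 0.0297) and Nr1h3 (1.72, adjusted p = 0.0349), each higher against a mean that includes the group given its own siRNAs. The Nr2c2 call was lost in all 8 fits that left out a library (adjusted p from 0.0816 to 0.266). The Rarg and Nr1h3 calls were lost in 6 and 7 of the 8 (adjusted p from 0.0376 to 0.117 and from 0.0388 to 0.222). In the Rarg and Nr1h3 contrasts 4 and 2 members had an unadjusted p below 0.05.

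**Figure D2:**
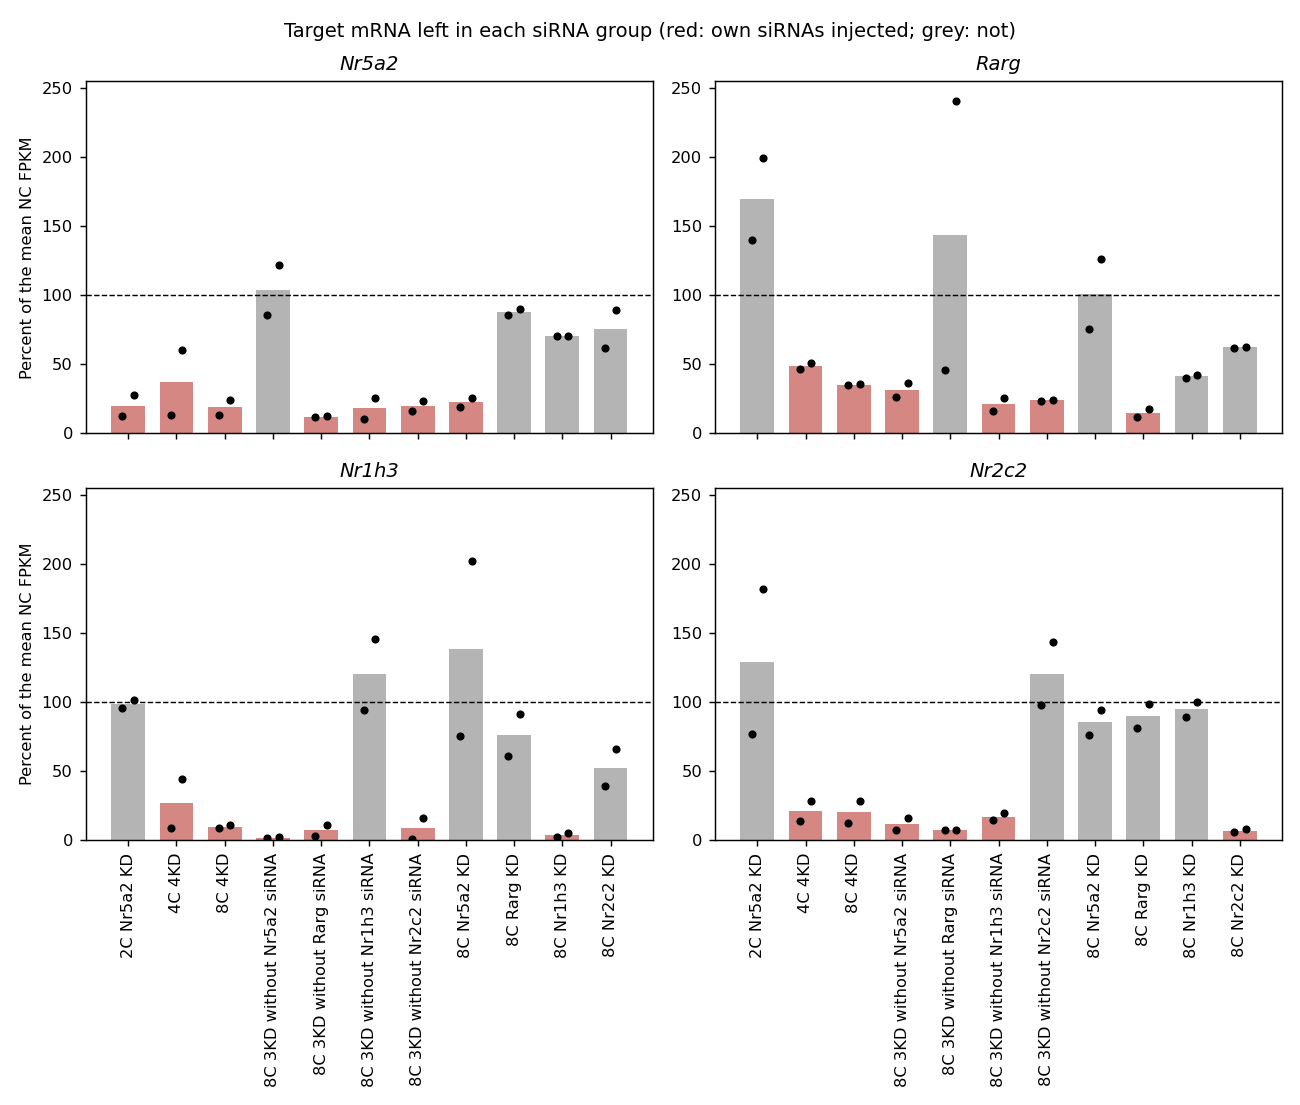
Percent of the mean NC FPKM left in each siRNA group (y axis) for the 4 targets; bars are group means, points the 2 libraries, red bars groups given the siRNAs of that gene, and the dashed line the NC mean. Red bars lie between 1.89% and 48.6%, and grey bars between 41.4% and 170%.

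The same siRNAs were also given in combination. Over the 25 pairs of a target and a group given its siRNAs, the part left ran from 1.89% to 48.6%, all 25 log2 fold changes were negative (-3.65 to -0.83, median -2.14), and both KD libraries were below both NC libraries in 22. Of all genes, 7.13% to 33.9% were below both in these comparisons. The 3 exceptions were all Rarg in the 3KD experiment. For Nr5a2 the share left was 20.2% at 2C, 37% in 4KD at 4C, 18.8% in 4KD at 8C, and 12.2%, 18.1% and 19.9% in the 3KD groups lacking Rarg, Nr1h3 and Nr2c2 siRNAs. The share left was 1.89% to 26.7% for Nr1h3 over 6 groups, 7.01% to 21.3% for Nr2c2, 12.2% to 37.0% for Nr5a2 over 7 groups and 14.9% to 48.6% for Rarg, so that the ranges overlapped. These shares come from experiments with different NC libraries and were not compared by a test.

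In 4KD embryos at 4C, Nr5a2 was 26.8 and 31.7 FPKM in NC and 3.98 and 17.6 in KD, and Nr1h3 was 15 and 22.3 in NC and 1.61 and 8.35 in KD. KD replicate 2 was higher than KD replicate 1 for both genes, and still below both NC libraries. Nr2c2 was 15 and 14.5 in NC and 2.1 and 4.17 in KD, and Rarg was 16.2 and 7.26 in NC and 5.45 and 5.95 in KD. All 4 targets were lower in both KD libraries, which held for 15.3% of genes. The summed late 2C markers were 108 and 263 FPKM in these NC libraries and 18.9 and 36.1 in KD, and their part in the result was not tested. Neither they nor any other gene was called (0%), and 3 of the 6 members tested, Nr5a2, Nr1h3 and Nr2c2, had an unadjusted p below 0.05. The log2 fold changes were -1.65 (SE 0.62, adjusted p = 0.809) for Nr5a2, -0.83 (SE 0.56, adjusted p = 0.909) for Rarg, -1.97 (SE 0.63, adjusted p = 0.782) for Nr1h3 and -1.97 (SE 0.51, adjusted p = 0.705) for Nr2c2.

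In 4KD embryos at 8C, Nr5a2 was 27.1 and 30.3 in NC and 3.9 and 6.91 in KD, and Nr1h3 was 10.6 and 15.2 in NC and 1.45 and 1.11 in KD. Nr2c2 was 4.21 and 6.71 in NC and 0.702 and 1.56 in KD, and Rarg was 7.31 and 17.2 in NC and 4.27 and 4.4 in KD. All 4 were again lower in both KD libraries (19.2% of genes), with log2 fold changes of -2.25 (SE 0.62, adjusted p = 0.38), -2.59 (SE 0.63, adjusted p = 0.299), -1.60 (SE 0.51, adjusted p = 0.448) and -1.20 (SE 0.56, adjusted p = 0.684) in this order. None was called, nor was any gene (0%), and 3 members had an unadjusted p below 0.05. The 4KD effect did not differ detectably between 8C and 4C for any of the 6 members tested. The differences ran from -0.62 for Nr1h3 to 1.29 for Rarb, 0 were called (0% of genes, limma) and 0 had an unadjusted p below 0.05.

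The 3KD experiment shows what happened to each target when its siRNAs alone were missing. Nr5a2 was 43.5 and 30.5 FPKM in NC and 45.2 and 31.8 without Nr5a2 siRNAs, so the groups overlapped. It was 4.35 and 4.66 in the group lacking Rarg siRNAs, 3.96 and 9.42 in that lacking Nr1h3 siRNAs and 8.72 and 5.99 in that lacking Nr2c2 siRNAs. Its log2 difference from the mean of the other 3KD groups was 2.50 (SE 0.42, adjusted p = 0.0359), the only member called in that contrast (0.282% of genes). That call was lost in all 8 fits that left out a library (adjusted p from 0.080 to 0.421).

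Nr1h3 was 19.8 and 11.7 in NC, 23 and 14.9 without its siRNAs and between 0.207 and 2.51 in the 6 libraries with them. Nr2c2 was 10.0 and 2.98 in NC, 6.37 and 9.3 without its siRNAs and between 0.465 and 1.28 in the 6 libraries with them. For both genes the 2 libraries lacking the siRNAs stood above all 6 that had them, and the log2 differences from the mean of the other 3KD groups were 3.47 (SE 0.53, adjusted p = 0.385) and 2.31 (SE 0.48, adjusted p = 0.682). No gene was called in either contrast (0%) or in the one for Rarg, and these had 1, 1 and 3 members with an unadjusted p below 0.05.

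Rarg was less clear. It was 17.6 and 2.18 in NC and 23.8 and 4.54 without Rarg siRNAs, so that replicate 2 was low in both. With Rarg siRNAs it was 3.6 and 2.61 in the group lacking Nr5a2 siRNAs, 1.61 and 2.55 in that lacking Nr1h3 siRNAs and 2.33 and 2.4 in that lacking Nr2c2 siRNAs. The group lacking the siRNAs was above the 6 others, with a log2 difference of 1.76 (SE 0.71, adjusted p = 1.0), but the NC group overlapped the KD groups. Replicate numbers in this experiment matched 2 runs of library numbers, and its libraries deviated together by number. Without NC replicate 2 the Rarg difference from NC was -2.19 in the 3KD group lacking Nr5a2 siRNAs and -2.47 in that lacking Nr2c2 siRNAs, and without NC replicate 1 it was 0.35 and 0.08.

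Against NC, the targets with siRNAs had log2 fold changes of -3.65 for Nr1h3, -1.93 for Nr2c2 and -0.92 for Rarg in the group lacking Nr5a2 siRNAs, where 7.13% of genes and 2 of the 3 targets were lower in both libraries. Without Rarg siRNAs they were -2.77 for Nr5a2, -3.00 for Nr1h3 and -2.16 for Nr2c2 (3 of 3 lower, 12.5% of genes). The values were -2.38, -1.34 and -1.65 for Nr5a2, Rarg and Nr2c2 without Nr1h3 siRNAs (2 of 3, 12.2%), and -2.18, -1.19 and -2.98 for Nr5a2, Rarg and Nr1h3 without Nr2c2 siRNAs (2 of 3, 12.3%). The summed oocyte markers were 84.3 to 179 FPKM in the 3 groups given Nr5a2 siRNAs, 17.6 to 55.7 in the group lacking them and 37.6 to 40.8 in NC, and their part in the result was not tested. No member was called in these 4 comparisons, which called 0%, 0.0565%, 0.00941% and 0% of genes; 2, 3, 2 and 2 members had an unadjusted p below 0.05. With the replicate number as a block Nr5a2 was called in the group lacking Rarg siRNAs (adjusted p = 0.0211 against 0.134).

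The target whose siRNAs were left out differed from NC by 0.06 (95% interval -1.07 to 1.18) for Nr5a2, 0.61 (95% interval -1.30 to 2.51) for Rarg, 0.26 (95% interval -1.15 to 1.68) for Nr1h3 and 0.40 (95% interval -0.90 to 1.69) for Nr2c2. All 4 estimates were above 0, except that Nr5a2 turned to -0.13 with median-ratio scaling and -0.12 with quantile normalization, and every interval took in 0. Compared within replicate numbers, Nr5a2, Rarg and Nr1h3 were above NC in both pairs, and Nr2c2 was below NC in replicate 1 and above it in replicate 2. The intervals come from the fit without the block. With it the standard errors were smaller, from 0.46 for Nr5a2 to 0.71 for Rarg, and none of the 4 was called (lowest adjusted p = 0.802, for Rarg).

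**Figure D3:**
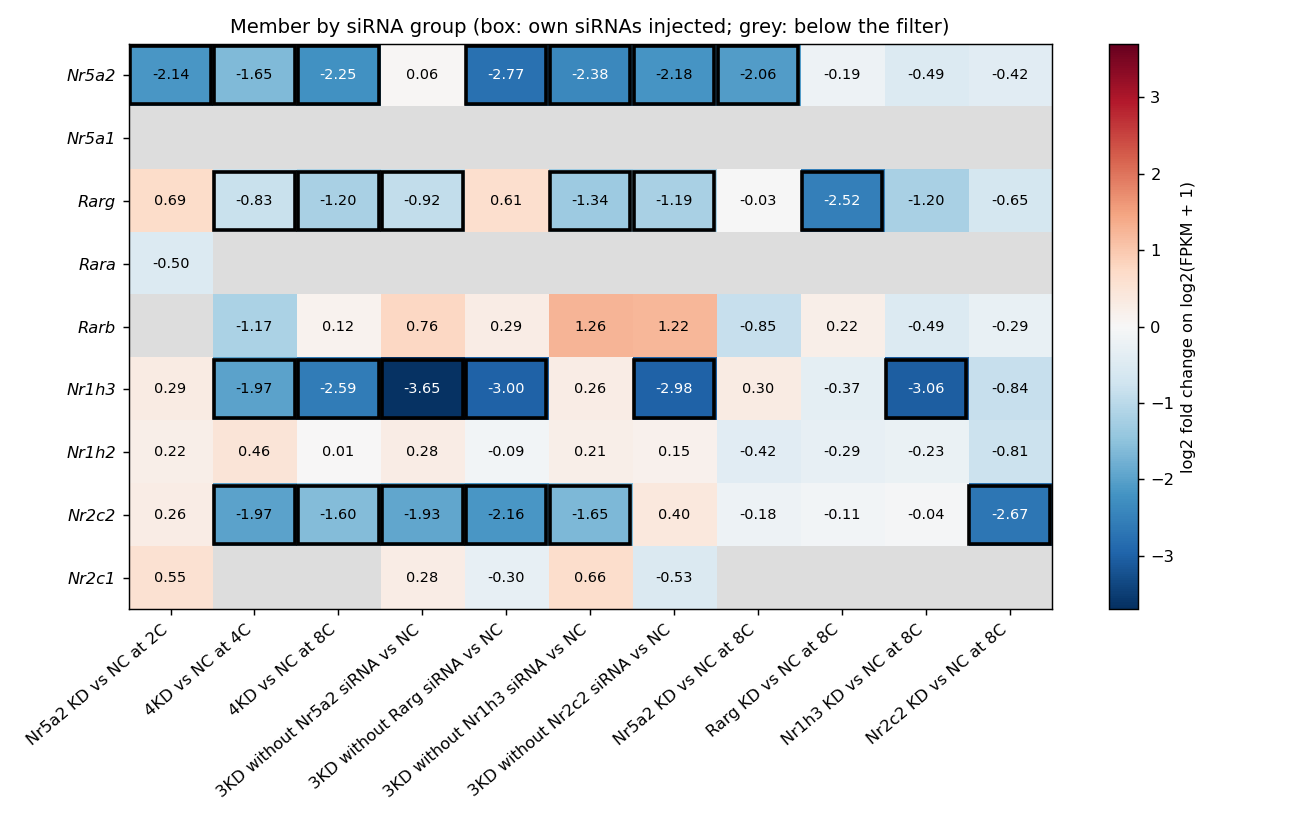
Log2 fold change against NC (colour and number) of the 9 genes (rows) in the 11 siRNA groups (columns); boxes mark the siRNAs given and grey cells genes below the filter on low values. Outside the boxes the lowest value is -1.20, for Rarg in Nr1h3 KD, and the row of Nr1h2 runs from -0.81 to 0.46.

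Nr1h2, LXRβ, is the paralog with the most transcript. In Nr1h3 KD it was 44.8 and 41 FPKM against 49.7 and 51.3 in NC, lower in both libraries, with a log2 fold change of -0.23 (95% interval -1.09 to 0.63) while 3.69% of Nr1h3 was left. In 4KD at 4C it was 57 and 21.3, against 42.6 and 14.6 in NC. In 4KD at 8C it was 23 and 45.3, against 20.9 and 49.4 in NC. The groups overlapped at both stages, with differences of 0.46 (95% interval -1.09 to 2.02) and 0.01 (95% interval -1.55 to 1.56). Compared within replicate numbers, Nr1h2 was above NC in both pairs at 4C, and at 8C in replicate 1 only. The intervals come from the fit without the replicate block. In the 3KD groups lacking Nr5a2, Rarg and Nr2c2 siRNAs, all given Nr1h3 siRNAs, the differences were 0.28 (95% interval -1.12 to 1.67), -0.09 (95% interval -1.48 to 1.30) and 0.15 (95% interval -1.24 to 1.54). No value was called in the 11 siRNA comparisons (lowest adjusted p = 0.624, 0 with an unadjusted p below 0.05), and 6 of the 11 were positive, 1 of which, in the 3KD group lacking Nr2c2 siRNAs, turned negative with quantile normalization. In the single Nr1h3 KD a rise of more than 0.63 on the log2 scale lies outside the interval.

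The summed FPKM of the pair was 61.2 ± 3.07 in NC and 43.3 ± 2.90 in Nr1h3 KD (SD, n = 2), and the share of Nr1h3 in the sum went from 17.4% to 0.910%.

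Rarb, the retinoic acid receptor that is itself a retinoic acid responsive gene, was 2.77 and 3.6 FPKM in NC and 3.74 and 3.99 in Rarg KD, higher in both libraries as 11.6% of genes were, with a log2 fold change of 0.22 (95% interval -0.64 to 1.09). Against the other 3 single KD groups Rarb was higher in Rarg KD by 0.77 (SE 0.32, adjusted p = 1.0) with an unadjusted p of 0.0365, one of the 4 members under 0.05 in that contrast. In the 3KD groups lacking Nr1h3 and Nr2c2 siRNAs it was 5.03 and 8.23, and 9.39 and 4.06, against 1.15 and 3.49 in NC. These were above both NC libraries in both groups (18.7% and 20.2% of genes), with differences of 1.26 (95% interval -0.08 to 2.61) and 1.22 (95% interval -0.13 to 2.57). In the group lacking Nr5a2 siRNAs it was 5.84 and 3.02 and overlapped NC, at 0.76 (95% interval -0.59 to 2.11). In 4KD at 4C it was 0.357 and 0, against 5.88 and 0 in NC, so that it was listed at 0 in a library of each group. In 4KD at 8C it was 5.67 and 4.51, against 2.26 and 8.6 in NC. These differences were -1.17 (95% interval -3.14 to 0.80) and 0.12 (95% interval -1.85 to 2.08). None of the 10 comparisons in which Rarb was tested called it (lowest adjusted p = 0.292), and 6 of 10 values were positive.

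Rara reached the filter in the pools only at 2C. In Rarg KD it was 0.173 and 0.478 FPKM and in the matching NC 0.134 and 0.0938, all under 0.5. Over all 8C pools Rara lay between 0 and 0.763. The retinoic acid receptor that shares the most 19-base stretches with Rarg was thus near the floor of these libraries where Rarg siRNAs were used at 8C, and an effect on it was not measurable at this depth.

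Nr2c1, TR2, was 0.944 and 1.03 FPKM in Nr2c2 KD against 0.97 and 0.754 in NC, below the filter. It was tested in the 3KD experiment, where it was 0.731 and 1.5 in NC. Among the groups given Nr2c2 siRNAs it was 3.35 and 0.469 without Nr5a2 siRNAs, 0.651 and 0.738 without Rarg siRNAs and 2.38 and 2.18 without Nr1h3 siRNAs. The differences from NC were 0.28 (95% interval -0.96 to 1.53), -0.30 (95% interval -1.54 to 0.95) and 0.66 (95% interval -0.59 to 1.90). The group lacking Nr1h3 siRNAs was above both NC libraries and the group lacking Nr2c2 siRNAs, at 0.535 and 0.359, below both. None was called, and 0 had an unadjusted p below 0.05. Nr5a1 was listed at 0 in all 28 pools from 4C and 8C, with Nr5a2 siRNAs and without. In the 2C pools it was 0.827 and 0.468 in NC and 0 and 0.138 in Nr5a2 KD. A rise of Nr5a1 in place of Nr5a2 was not detected in any KD pool.

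**Figure D4:**
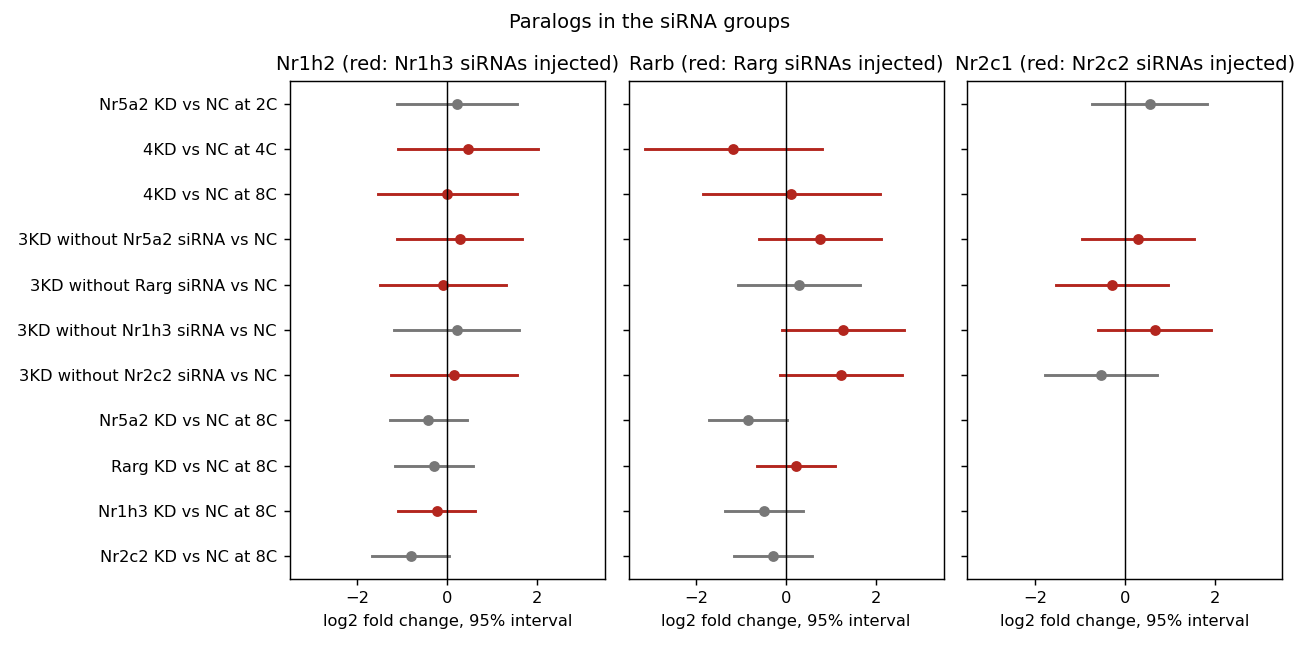
Log2 fold change against NC (x axis, point) with its 95% interval (line) for the 3 paralogs that passed the filter in more than 1 siRNA comparison (y axis); red marks groups given siRNAs against the target of the same family. Every interval includes 0, and the intervals of Nr1h2 in the single KD experiment are narrower than in the 4KD and 3KD experiments. All come from the fit without the replicate block, which leaves differences between replicate numbers in them.

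Effects of one siRNA set on another family were looked for in the same fits. Over the 46 values of members without siRNAs of their own, the median log2 fold change was -0.01, 23 were positive, 0 were called with limma and 1 had an unadjusted p below 0.05. By non-overlap, 12 were below and 5 above both NC libraries. Over the 11 comparisons, 7.13% to 33.9% of all genes were below and 6.38% to 27.3% above. The values below were spread unevenly over the comparisons. In Nr1h3 KD 4 of 5 members without own siRNAs were below (18.9% of genes), and in Nr2c2 KD 4 of 5 (33.9%). At most 2 were below in any other comparison.

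The 1 value was Rarg in Nr1h3 KD. Rarg was 13 and 12.2 FPKM there and 28 and 33 in NC, 41.4% of the NC mean, a log2 fold change of -1.20 (SE 0.39, adjusted p = 1.0). In Nr1h3 KD 5 of the 6 members tested, Nr1h3 included, were lower in both libraries, as were 18.9% of all genes, and the other 3 were Nr5a2 (34.8 and 34.9), Rarb (1.71 and 2.23) and Nr1h2. In the 3KD group lacking Rarg siRNAs, which did get Nr1h3 siRNAs, the Rarg difference from NC was 0.61, with replicates far apart. Its confidence interval, -1.30 to 2.51, takes in the -1.20 of Nr1h3 KD. This group therefore does not decide whether Rarg is lower with Nr1h3 siRNAs.

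In Nr2c2 KD too, 5 of the 6 members were lower in both libraries, but so were 33.9% of genes, and the median gene lay at -0.24. Rarg was 18.9 and 19.1 and its difference was -0.65 (SE 0.39, adjusted p = 0.93), or -0.41 relative to the median gene. Nr1h3 was 7.03 and 4.18 and differed by -0.84 (SE 0.49, adjusted p = 0.93), or -0.60, and Nr1h2 was 27.2 and 29.8 and differed by -0.81 (SE 0.39, adjusted p = 0.93), or -0.57. The late 2C markers summed to 282 FPKM in replicate 1 of this group and to 1.29 in replicate 2. Rarg and Nr1h2 had nearly the same FPKM in both replicates. Nr5a2 (44.2 and 30.7) and Nr1h3 were higher in replicate 1, and Rarb (1.66 and 3.38) was lower there. In the fits that each left out a library, Rarg stayed between -0.76 and -0.53. Nr1h3 then lay between -1.16 and -0.53, and Nr1h2 between -0.87 and -0.74. The part of the late 2C markers in the result was not tested.

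In Nr5a2 KD at 8C, Rarb was 1.45 and 1.18, lower in both libraries as were 33.1% of genes, with a difference of -0.85 (SE 0.40, adjusted p = 0.292), or -0.63 relative to the median gene at -0.22. Rarg was 38.5 and 23, Nr1h3 21.5 and 8.02 and Nr2c2 7.63 and 9.45, and each overlapped NC. In Rarg KD, Nr5a2 (42.3 and 44.6) and Nr1h2 (34 and 49.5) were lower in both libraries together with Rarg itself (19.6% of genes), with log2 fold changes of -0.19 and -0.29.

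At 2C, Nr5a2 was 19.4 and 24.3 FPKM in NC and 2.72 and 6.13 in Nr5a2 KD, lower in both, as were 8.28% of all genes, and its log2 fold change was -2.14 (SE 0.49, adjusted p = 0.89). This fit has 4 libraries, and 1 of the NC libraries carries a library number from another series than the other 3. In it 0.0167% of genes and none of the 7 members tested were called (1, Nr5a2, at an unadjusted p below 0.05). Rarg was 9.89 and 9.57 in NC and 19.4 and 13.6 in KD, above both NC libraries as 27.3% of genes were, with a difference of 0.69 (SE 0.42, adjusted p = 0.89), or 0.45 relative to the median gene at 0.23. Nr2c2 was 19.2 and 28.4 in NC and 18.3 and 43.3 in KD, and Nr1h3 was 4.32 and 19.7 in NC and 11.5 and 12.2 in KD. Nr1h2 was 5.39 and 15.8 in NC and 13.1 and 9.33 in KD, and Rara was 1.33 and 2.48 in NC and 0.595 and 1.55 in KD. All 4 overlapped between the groups.

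Base editing of Nr5a2 leaves the other receptors without any siRNA and has more libraries per group. Nr5a2 mRNA had lowest, median and highest values of 33.1, 47.5 and 77.6 FPKM in 8C BE embryos, 7.98, 41.8 and 81.3 in 8C sgRNA embryos and 28.8, 47.9 and 108 in 8C BE + sgRNA embryos, and the 3 ranges overlapped. The difference of BE + sgRNA embryos from the mean of both control groups was 0.21 (95% interval -0.29 to 0.71) with an adjusted p of 0.831. Within the run of libraries named eBE it was 0.02 (SE 0.19) and within that named BE4 0.21 (SE 0.46). At 2C the values were 2.65, 21.4 and 70.8 in BE embryos, 4.12, 9.74 and 70.6 in sgRNA embryos and 2.28, 30.3 and 46.3 in BE + sgRNA embryos. The difference was 0.41 (95% interval -0.47 to 1.29) with an adjusted p of 0.732. It was 0.57 (SE 0.42) within the eBE run and 0.62 (SE 0.74) within the BE4 run, which has no sgRNA embryos. Set beside the Nr5a2 siRNA pools, the lower bound of the 8C interval, -0.29, lies above every siRNA estimate for Nr5a2 (-2.77 to -1.65), as does that of the 2C interval, -0.47. The 2 measures are not alike, as FPKM counts edited and unedited Nr5a2 transcripts together and does not measure loss of the protein. The study reported edited Nr5a2 reads, and depleted NR5A2 protein by immunofluorescence, after injection of both.

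No other member was called either. At 8C the 6 members tested ran from -0.07 to 0.32 and none was called (0.164% of genes). At 2C the 8 tested ran from -0.39 for Nr5a1 to 0.49 for Nr1h3 and none was called (0.00805% of genes), and 0 had an unadjusted p below 0.05 at either stage. Nr1h2 was 5.64, 39.6 and 66.6 in 8C BE + sgRNA embryos against 30.4, 41.1 and 55.8 in BE embryos, a difference from both controls of -0.07 (95% interval -0.57 to 0.43). The lowest value belonged to the library with the lowest FPKM sum, and without it the difference was 0.13 (SE 0.17). Rarb gave -0.07 (95% interval -0.82 to 0.68) at 8C, Nr1h3 0.32 (95% interval -0.23 to 0.87) and Nr2c2 0.27 (95% interval -0.33 to 0.87). Within the eBE run these were 0.61 (SE 0.35), 0.48 (SE 0.30) and 0.60 (SE 0.25), and within the BE4 run -0.25 (SE 0.41), -0.03 (SE 0.47) and -0.49 (SE 0.48), so that the direction for these genes was not the same in both runs.

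**Figure D5:**
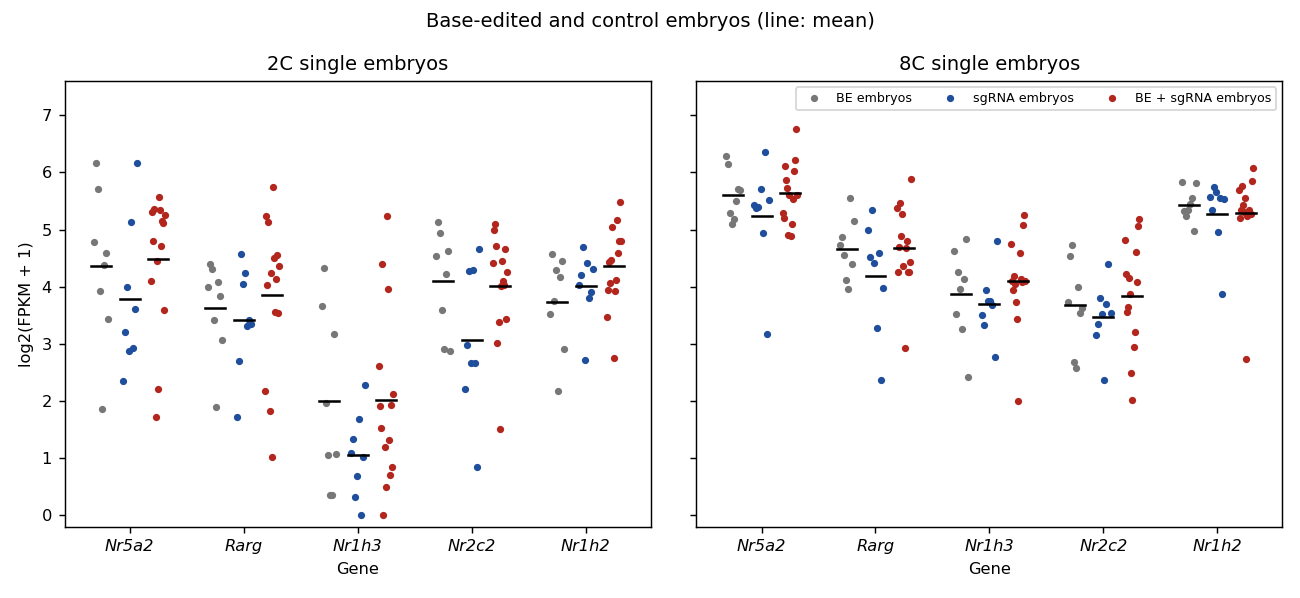
Level as log2(FPKM + 1) (y axis) of the 4 targets and Nr1h2 (x axis) in 2C and 8C single embryos that received BE, the sgRNA or the pair; points are embryos and lines means. The 3 groups overlap for every gene, and Nr5a2 in BE + sgRNA embryos at 8C spans 28.8 to 108.0 FPKM.

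The receptors' partners and cofactors were taken as 10 genes: the RXR genes Rxra, Rxrb and Rxrg, the atypical receptors Nr0b1 and Nr0b2, the coactivators Ncoa1, Ncoa2 and Ncoa3, and the corepressors Ncor1 and Nrip1. In the NC pools of the single KD experiment Ncoa3 was the most abundant at 18.6 ± 4.39 FPKM (SD, n = 2), then Rxrb at 8.81 ± 3.85, Ncoa1 at 4.83 ± 1.69, Ncor1 at 4.10 ± 0.204 and Rxra at 3.08 ± 0.0298, and Rxrg was listed at 0. No gene of the list was called with limma in the 22 siRNA and base editing comparisons, and 2 of the 134 values had an unadjusted p below 0.05 (Rxra in the 3KD group lacking Nr5a2 siRNAs against the other 3KD groups, and Ncoa2 in BE + sgRNA embryos at 8C). In Nr5a2 KD at 8C, 1 of the 6 tested was positive and their median was -0.27, beside -0.22 for all genes. In Nr1h3 KD 0 of 6 were positive with a median of -0.16, beside 0.00 for all genes. Between control single embryos at 2C and 8C, 2 of 7 tested were higher and 4 lower, in a comparison where 72.6% of all genes were called and the median gene lay at -0.31. Rxra (1.29, SE 0.24, adjusted p = 1.56e-05) and Rxrb (2.12, SE 0.28, adjusted p = 2.54e-08) rose, and Ncoa2 fell by 3.24 (SE 0.26, adjusted p = 3.97e-13), Ncoa1 by 2.01 (SE 0.33, adjusted p = 1.91e-06), Ncor1 by 1.07 (SE 0.19, adjusted p = 4.89e-06) and Nrip1 by 0.43 (SE 0.18, adjusted p = 0.0312).

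The genes most like each target by Pearson correlation of mean log2(FPKM + 1) over the 9 control groups were found among 8615 genes with at least 5 FPKM in 1 of them, as a description over points that share stages and procedures. For Nr5a2 these were Tars2 (r = 0.986), Ptges2 (0.977) and Nsmce4a (0.975). For Rarg they were Socs3 (0.958), Cdc42ep4 (0.953) and Xpnpep3 (0.946), and for Nr1h3 Gm11517 (0.984), Tceb2 (0.982) and Ddx18 (0.981). For Nr2c2 they were Gtf3c4 (0.941) and Polr3b (0.933). Among the 9 members, Nr5a2 went with Nr1h2 (r = 0.850) and Nr1h3 (0.798) and against Rara (-0.871), and Nr2c2 went against its paralog Nr2c1 (-0.733).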

How the data were processed

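RNA-seq of 92 libraries was used (32 embryo pools and 60 single embryos); the 21 samples of other assays were not analysed here. Per the study's methods, the authors trimmed paired-end Smart-seq2 reads, aligned them to mm9 with TopHat and computed FPKM with Cufflinks on refFlat genes; the deposited values are FPKM, so the number of reads is unknown and count tests were not run. Groups came from the sample labels.

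FPKM was taken as log2(FPKM + 1) and tested with limma 3.58.1 (R 4.3.3), with a variance trend, on genes averaging 1 FPKM or more in any group of the fit, with Benjamini-Hochberg adjustment over all genes tested and calls at an adjusted p below 0.05. One fit was made for each of the 4KD, 3KD, single KD and 2C KD experiments, for the single embryos of each stage, and for the control single embryos. Fold changes on this scale understate those of low genes. P-values measure the spread between libraries, which may be technical where the labels do not say that replicates are separate collections. The steps were tested on simulated data.

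Replicate numbers were taken as pairs in the 3KD experiment, since the 10 correlations between groups of the difference between replicates, across genes, ran from 0.278 to 0.513 and the numbers matched library number runs in the file headers; the main fit has no block. In the 4KD experiment the 2 correlations were 0.336 and 0.346, of the same order, but from fewer pairs than the 3 set for taking numbers as pairs. Sequences were compared with Biopython 1.88 on GENCODE vM1 (NCBIM37): shared stretches over all coding transcripts, protein identity on the longest coding sequence of each gene. The named genes were the 9 members, the listed partners and the 3 genes most like each target; a few items that these rules select are not reported here. Members and lists were chosen with earlier results of these data known. Alternatives were the pseudocount, filter, scaling, variance prior, block, libraries in the fit, left-out libraries, control group and run.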

Additional observations from a re-analysis of the deposited data

Results flagged for a closer look

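Within the groups of 8 single embryos, 34 combinations of gene and group were checked for an embryo far from the rest, and 9 had a highest value whose gap to the next was above the 95% critical value of Dixon's test for a group of this size; chance flags about 1 in 20. Among 2C BE embryos, replicate 5 had 12.5 FPKM of Nr5a1 (next 2.99) and 2.21 of Rarb (next 0.497). The same embryo had the lowest Nr5a2 of its group, 2.65 FPKM. Among 2C sgRNA embryos, replicate 8 had 70.6 FPKM of Nr5a2 (next 33.9), and its column name gives another stage than its label. It had the lowest summed late 2C markers of this group, 2.67 FPKM (highest 814), and the lowest summed oocyte markers, 29.8 (highest 1203). It also had the fewest genes at 1 FPKM or more, 7620 (highest 11128), and was kept in the main fits. In the same group, replicate 7 had 1.79 of Nr5a1 (next 0.468) and replicate 5 had 1.70 of Nr2c1 (next 0.793). Among 8C sgRNA embryos, replicate 8 had 26.8 of Nr1h3 (next 14.5), replicate 6 had 1.4 of Rara (next 0.453) and replicate 2 had 3.68 of Nr2c1 (next 1.51). Among 8C BE embryos, replicate 6 had 2.92 of Nr2c1 (next 1.46).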

How the results depend on the processing

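With another setting, 782 of 836 recomputed values kept their direction and side of the threshold, and with a library left out 326 of 412 did. The cause of the other changes was not tested, beyond the smaller number of libraries or the larger number of genes where the setting itself brings it.

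Members called changed as follows. For Nr2c2 KD against NC, 1 became 0 without the filter, with median-ratio scaling, with quantile normalization, with the replicate block and with only the compared groups in the fit (Nr2c2 at -2.67, -2.45, -2.44, -2.67 and -2.67), and 0 in every fit leaving out a library, where Nr2c2 ran from -2.96 to -2.38. For Nr2c2 KD against the other single KD groups, 1 became 0 without the filter and 0 in all fits leaving out a library. For the 3KD group lacking Nr5a2 siRNAs against the other 3KD groups, 1 became 0 with a pseudocount of 0.1, without the filter, with either scaling, with only the compared groups, and in all fits leaving out a library. For Nr5a2 KD against NC the count was 0 to 1 with a library left out, with Nr5a2 from -2.25 to -1.88. For Nr5a2 KD against the other single KD groups, 3 became 1 with only the compared groups, and 1 to 3 with a library left out. For Rarg KD, 0 became 1 with median-ratio scaling and quantile normalization, against NC (Rarg at -2.39 and -2.43) and against the other groups. For Nr1h3 KD against the other groups, 0 became 1 with a pseudocount of 0.1.

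The replicate block, which pairs libraries in the 3KD experiment, raised the members called from 0 to 1 in the group lacking Rarg siRNAs and changed no other count there; in the single KD experiment, whose numbers did not pair the libraries (correlations -0.04 to 0.141), and in the 4KD and 2C experiments it changed only the Nr2c2 KD count above. In the 2C experiment and for the difference between stages of the 4KD effect, the compared groups are the whole fit, so that this setting gave nothing new.

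Directions that turned: Nr5a2 in the 3KD group lacking its siRNAs was -0.13 with median-ratio scaling and -0.12 with quantile normalization; Nr1h2 in the group lacking Nr2c2 siRNAs was -0.026 with quantile normalization; Nr2c2 between stages of single embryos was 0.042 with a pseudocount of 0.1, 0.17 with quantile normalization and 0.10 without libraries whose column name gives another stage. For BE + sgRNA embryos at 8C, Nr1h2 was 0.13 without the library of lowest FPKM sum and 0.011 against sgRNA embryos alone. Rarb there was 0.0027 with median-ratio scaling, 0.084 against sgRNA embryos alone, 0.18 without libraries whose column name gives another stage, 0.61 within the eBE run and 0.18 when the run was a covariate. Nr1h3 was -0.032 and Nr2c2 -0.49 within the BE4 run. With a library left out, Nr1h2 ran from -0.28 to 1.21 in 4KD at 4C, from -0.59 to 0.61 in 4KD at 8C, and from -0.52 to 1.07, -0.88 to 0.70 and -0.64 to 0.94 in the 3KD groups lacking Nr5a2, Rarg and Nr2c2 siRNAs. Rarb ran from -2.56 to 0.22 in 4KD at 4C and from -0.66 to 0.90 at 8C. Rarg ran from -2.19 to 0.35, -0.67 to 1.88 and -2.47 to 0.079 in the 3KD groups lacking Nr5a2, Rarg and Nr2c2 siRNAs. Nr5a2 without its siRNAs ran from -0.19 to 0.31, Nr1h3 from -0.093 to 0.62 and Nr2c2 from -0.34 to 1.13, and Nr2c1 in the group lacking Nr5a2 siRNAs from -0.50 to 1.06. With 2 libraries per group and unknown depth, paralogs under 1 FPKM could not be compared.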
